A study of Mus musculus with 10 samples.

Results

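The 10 genes described here encode the ligands and receptors of apelin, adrenomedullin, vascular endothelial growth factor (VEGF) and angiopoietin signalling in the heart. They were taken by symbol from a table of 55335 genes: the ligand genes Apln, Adm, Vegfa and Angpt1, and the receptor genes Aplnr, Calcrl, Ramp2, Kdr, Flt1 and Tek. The tissue was heart, taken from male offspring of wild-type (WT) genotype; the labels do not say which region. In the PAMH group (5 samples) the dams had been given anti-Müllerian hormone (AMH) while pregnant, and in the control group (5 samples) they had been given the vehicle, phosphate-buffered saline (PBS). Prenatal AMH (PAMH) is used in mice to model polycystic ovary syndrome, and the question was how the hearts of male offspring differ. Age, strain and AMH dose are not given in the labels, nor is the dam or litter of each sample, so each p-value reflects how samples of a group scatter, and samples may share a litter.

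Apelin acts through the G protein-coupled receptor encoded by Aplnr, and adrenomedullin through the receptor Calcrl, which binds it when paired with a RAMP protein such as Ramp2. Both peptides widen vessels, and apelin strengthens cardiac contraction. VEGF-A made by cardiomyocytes acts on endothelial cells through Kdr (VEGFR2), the main signalling receptor, while Flt1 (VEGFR1) binds it more tightly and limits what reaches Kdr. Angiopoietin 1 activates the endothelial receptor Tek (Tie2) and stabilises vessels.

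Expression is in FPKM, the authors' read fragments scaled by transcript length and library size. Cardiomyocyte markers were high, summing to 7519 to 12841 FPKM in PAMH and 8495 to 10801 FPKM in control samples. Of 4 skeletal muscle markers 3 were under 0.1 FPKM in every sample. In genes with 1 transcript, low values of FPKM multiplied by length clustered at steps, taken as the value of 1 read or read pair. Libraries then held about 15800000 to 20100000 steps in PAMH and 18800000 to 26600000 steps in control samples. PAMH replicates 4 and 5 stood apart. Of the low values that lay on a step, 14.3% in PAMH replicate 4 and 27.3% in PAMH replicate 5 were at 1 step, against 45.3% to 50.7% in the other 8 samples. PAMH replicate 4 had the fewest genes above 0, 16113 against up to 21097.

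All 10 genes exceeded the mean of 1 FPKM required for testing, and 2 of them differed between PAMH and control hearts: Apln fell and Adm rose. Across the 9439 genes tested the same test called 584 (6.19%), of which 467 (4.95%) were higher and 117 (1.24%) lower (limma on log2(FPKM + 1), adjusted p under 0.05). Over the 10 genes 5 log2 fold changes were positive and 5 negative, with a median of 0.00. Over all tested genes 6352 were positive and 3087 negative, with a median of 0.07. That median was 0.01 under median ratio scaling, so the signs of small changes depend on scaling. The ligand genes Adm, Vegfa and Angpt1 had positive changes. Of 6 receptor genes 4 had negative changes, none passed the test in limma, and none had an unadjusted p under 0.05, where 24.0% of all tested genes did. The split of calls over all genes depended on scaling, with 558 higher and 85 lower when samples were rescaled to the same sum, 215 higher and 190 lower under median ratio scaling, 234 and 246 under quantile normalization, and 216 and 210 when samples were rescaled to the same sum outside the mitochondrial genes and their nuclear copies. Leaving out PAMH replicate 1 or 5 gave 309 or 342 calls, leaving out control replicate 1, 3, 4 or 5 gave 289, 274, 304 or 296, and leaving out PAMH replicate 3 gave 1126.

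**Figure D1:**
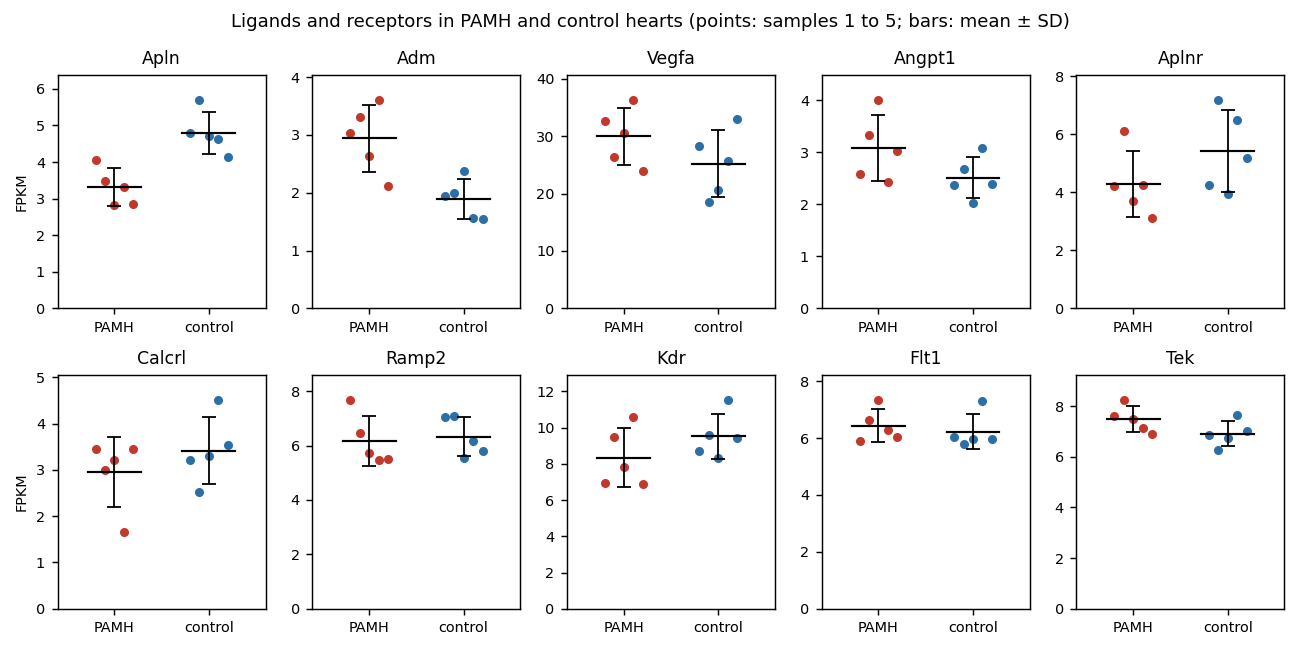
FPKM of the 10 genes in each of 5 PAMH (red, left) and 5 control (blue, right) samples, with a panel per gene, the mean as a line and the SD as an error bar. All 5 PAMH values of Apln lie below all control values, 4 of 5 PAMH values of Adm lie above all control values, and the groups overlap for the other genes.

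Levels of the 10 genes can be set against each other because FPKM is per length, though for genes with several transcripts the length used is not given. In PAMH hearts Vegfa was highest at 30.0 ± 4.93 FPKM, followed by Kdr at 8.34 ± 1.62, Tek at 7.48 ± 0.517 and Flt1 at 6.44 ± 0.580 FPKM (mean ± SD, n = 5). In control hearts Vegfa stood at 25.2 ± 5.86 FPKM, Kdr at 9.51 ± 1.24, Tek at 6.91 ± 0.495 and Flt1 at 6.22 ± 0.617 FPKM (n = 5). Vegfa did not overlap any other member in either group. Kdr did not overlap Tek in control hearts, but did in PAMH hearts, and all further neighbours in the order of levels overlapped. Adm had the lowest mean of the members in both groups, though in PAMH hearts it hardly differed from Calcrl (2.94 ± 0.585 and 2.95 ± 0.752 FPKM).

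Apelin. Apln (chromosome X, 48025146 to 48034853, minus strand, build GRCm38) has a single annotated transcript. It was at 4.07, 3.50, 2.83, 3.33 and 2.85 FPKM in PAMH replicates 1 to 5, against 4.80, 5.71, 4.71, 4.64 and 4.14 FPKM in control replicates 1 to 5. Every PAMH value lay below every control value, although the highest PAMH sample (replicate 1) and the lowest control sample (replicate 5) were close together. Groups that do not overlap were seen for 797 of the tested genes (8.44%), with PAMH above in 6.74% and below in 1.71%, and among the 10 genes only for Apln. Apln averaged 3.31 ± 0.514 FPKM in PAMH and 4.80 ± 0.567 FPKM in control hearts (log2 fold change -0.43, SE 0.10, limma adjusted p = 0.0225), which is 0.691 of the control mean. These values stand for about 159 to 217 steps per PAMH sample and 246 to 402 per control sample. The call was lost without PAMH replicates 4 and 5, the libraries that stood apart (log2 fold change -0.38, limma adjusted p = 0.0804), and when samples were rescaled to the same sum (limma adjusted p = 0.0515). It was also lost without PAMH replicate 5 alone (adjusted p = 0.0576) and without control replicate 1, 3 or 4 (adjusted p = 0.0584, 0.0558 and 0.0520 by limma), with the log2 fold change still between -0.44 and -0.39.

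The receptor gene Aplnr (chromosome 2, 85136225 to 85139923, plus strand) ranged from 3.12 to 6.13 FPKM in PAMH and from 3.93 to 7.20 FPKM in control hearts. It had the widest spread of the 10 genes relative to its mean, 26.3% in PAMH and 26.2% in control samples (SD over mean). The groups overlapped, with 2 PAMH samples below all controls and 2 control samples above all PAMH samples (log2 fold change -0.28, SE 0.17, limma adjusted p = 0.333). Apela, which encodes the second ligand of this receptor, was listed at 0 in all 10 samples. The within-sample ratio of Apln to Aplnr was 0.799 ± 0.154 in PAMH and 0.926 ± 0.221 in control hearts (SD, n = 5 each), and the groups overlapped.

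Adrenomedullin. Adm (chromosome 7, 110627661 to 110629820, plus strand) was at 3.03, 3.30, 2.63, 3.61 and 2.11 FPKM in PAMH replicates 1 to 5, against 1.95, 2.004, 2.37, 1.56 and 1.54 FPKM in control replicates 1 to 5. The first 4 PAMH samples lay above every control, and PAMH replicate 5 lay below control replicate 3. Adm averaged 2.94 ± 0.585 FPKM in PAMH and 1.89 ± 0.345 FPKM in control hearts (log2 fold change 0.44, SE 0.12, limma adjusted p = 0.0427), a ratio of means of 1.56. If the reads belong to the longer annotated transcript of 1.39 kb, these values stand for about 51.9 to 90.7 steps per PAMH sample and 40.3 to 71.9 per control sample, so counting error is larger than for Apln. The call was lost without PAMH replicate 1, 2 or 4 (adjusted p = 0.0929, 0.0877 and 0.0608) and without control replicate 1, 2, 4 or 5 (adjusted p = 0.0865, 0.0651, 0.106 and 0.107 by limma), with log2 fold changes from 0.38 to 0.46. It was also lost under 3 of 4 other scalings (adjusted p = 0.0852 to 0.0925 by limma).

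The receptor Calcrl (chromosome 2, 84330626 to 84425411, minus strand) ranged from 1.65 to 3.46 FPKM in PAMH and from 2.52 to 4.51 FPKM in control hearts (log2 fold change -0.17, SE 0.15, limma adjusted p = 0.532). Its lowest value was that of PAMH replicate 4, and the other 4 PAMH samples lay within the control range. Ramp2 (chromosome 11, 101246028 to 101259546, plus strand), the partner that makes Calcrl an adrenomedullin receptor, averaged 6.17 ± 0.930 FPKM in PAMH and 6.33 ± 0.711 FPKM in control hearts (limma adjusted p = 0.862). Ramp2 shares exon sequence on the same strand with Vps25, which averaged 12.1 FPKM, and the division of reads between them is not given. The log2 fold change of Ramp2, -0.03, turned to 0.01 when samples were rescaled to the same sum. Ramp1, with which Calcrl forms the receptor for calcitonin gene-related peptide, averaged 1.49 ± 0.461 FPKM in PAMH and 1.49 ± 0.215 FPKM in control hearts. Ramp3, the other adrenomedullin partner, averaged 2.77 ± 0.444 and Ackr3, a scavenger receptor for adrenomedullin, 16.2 ± 2.38 FPKM in PAMH hearts, against 2.82 ± 0.581 and 15.6 ± 1.25 FPKM in control hearts. Adm2 and Calca, which encode related peptides, were listed at 0 in all 10 samples. Of 6 tested genes of the adrenomedullin system 1, Adm, was higher and 5 did not pass, beside 4.95% called higher over all tested genes.

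VEGF. Vegfa (chromosome 17, 46016993 to 46032369, minus strand) ranged from 23.9 to 36.3 FPKM in PAMH and from 18.4 to 33.0 FPKM in control hearts. A control sample, replicate 5, was second only to PAMH replicate 4, so the groups overlapped (log2 fold change 0.26, SE 0.15, limma adjusted p = 0.337). Vegfb, which binds Flt1 but not Kdr and supports fatty acid handling in mouse heart endothelium, was more abundant per length than Vegfa, at 95.4 ± 20.2 FPKM in PAMH and 92.4 ± 10.2 FPKM in control hearts (limma adjusted p = 0.914). Pgf, the gene of placental growth factor, another Flt1 ligand, averaged 1.56 ± 0.344 FPKM in PAMH and 1.72 ± 0.106 FPKM in control hearts. The lymphangiogenic ligand Vegfc averaged 1.06 ± 0.323 and 1.13 ± 0.185 FPKM in PAMH and control hearts. Vegfd, at 0.563 ± 0.244 FPKM in PAMH and 0.409 ± 0.0756 FPKM in control hearts, was below the filter and was not tested. None of the 4 tested ligand genes passed in limma, and none had an unadjusted p under 0.05.

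Kdr (chromosome 5, 75932827 to 75978458, minus strand) was at 6.94, 9.45, 7.82, 10.6 and 6.90 FPKM in PAMH replicates 1 to 5, against 8.70, 9.58, 8.31, 11.5 and 9.45 FPKM in control replicates 1 to 5. PAMH replicates 1, 3 and 5 lay below all controls, and PAMH replicates 2 and 4 lay within the control range (log2 fold change -0.18, SE 0.12, limma adjusted p = 0.385). Flt1 (chromosome 5, 147561604 to 147726011, minus strand) ranged from 5.88 to 7.34 FPKM in PAMH and from 5.81 to 7.32 FPKM in control hearts, nearly the same range (log2 fold change 0.04, SE 0.08, limma adjusted p = 0.779). Its sign turned under 3 of 4 other scalings, to -0.03 at median ratio scaling. The ratio of Kdr to Flt1 within a sample, which scaling of that sample does not move, was 1.30 ± 0.253 in PAMH and 1.53 ± 0.107 in control hearts (SD, n = 5 each). In 3 PAMH samples it lay below all controls and in 1, replicate 4, above all controls. The ratio of Vegfa to Flt1 was 4.69 ± 0.905 in PAMH and 4.07 ± 0.998 in control hearts, with overlap. The lymphatic receptor gene Flt4 averaged 1.43 ± 0.359 FPKM in PAMH and 1.69 ± 0.134 FPKM in control hearts, the co-receptor gene Nrp1 4.996 ± 0.628 and 4.31 ± 0.572 FPKM, and Nrp2 2.55 ± 0.263 and 2.95 ± 0.3797 FPKM. None of the 5 receptor and co-receptor genes passed in limma, and none had an unadjusted p under 0.05.

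Angiopoietin. Angpt1 (chromosome 15, 42424723 to 42676977, minus strand) was at 2.59, 3.33, 4.01, 2.42 and 3.03 FPKM in PAMH replicates 1 to 5, against 2.38, 2.68, 2.02, 3.09 and 2.40 FPKM in control replicates 1 to 5. PAMH replicates 2 and 3 lay above all controls and the groups overlapped (log2 fold change 0.21, SE 0.11, limma adjusted p = 0.285). Its receptor gene Tek (chromosome 4, 94739289 to 94874976, plus strand) varied least of the 10 genes, with an SD of 6.91% of the mean in PAMH and 7.17% in control hearts. Tek ranged from 6.90 to 8.25 FPKM in PAMH and from 6.28 to 7.64 FPKM in control hearts (log2 fold change 0.10, SE 0.07, limma adjusted p = 0.415), and its change was 0.00 with quantile normalization. The ratio of Angpt1 to Tek was 0.412 ± 0.0811 in PAMH and 0.364 ± 0.0507 in control hearts, with overlap. Angpt2, which can oppose Angpt1 at Tek, averaged 0.403 ± 0.0923 FPKM in PAMH and 0.507 ± 0.125 FPKM in control hearts, below the filter. Angpt4 was at or below 0.129 FPKM throughout. Tie1, an orphan receptor that associates with Tek, averaged 11.6 ± 0.587 FPKM in PAMH and 12.4 ± 1.38 FPKM in control hearts (limma adjusted p = 0.5005). None of the 4 tested genes of this group passed in limma, and none had an unadjusted p under 0.05.

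**Figure D2:**
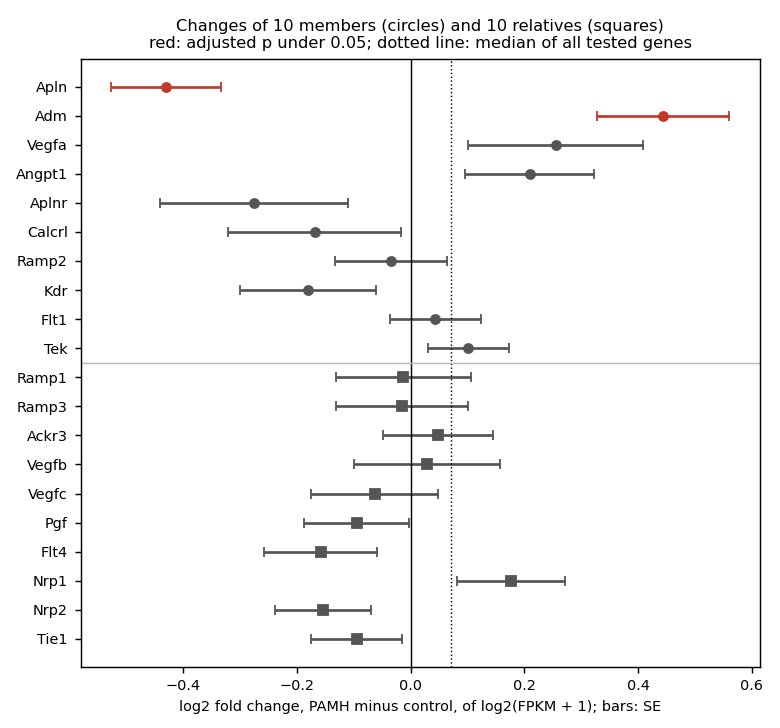
Log2 fold change (PAMH minus control, of log2(FPKM + 1)) with its SE for the 10 genes (circles, above) and 10 ligand and receptor relatives (squares, below); the dotted line marks the median of all tested genes. Only Apln, at -0.43, and Adm, at 0.44, passed the test.

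A wider list of 68 genes of these pathways was read from the same fit. Of its 53 tested genes 4 were higher (Adm, Nr4a1, Egln3 and Bnip3), 1 was lower (Apln) and 48 did not pass, with a median log2 fold change of 0.04. Over all tested genes limma called 4.95% higher and 1.24% lower. An unadjusted p under 0.05 was found by limma in 11 of the 53 genes, beside 24.0% of all tested genes. The count of called genes on the list was 3 without PAMH replicate 1 or 5 or without control replicate 1, 3 or 4, and 8 without PAMH replicate 3. Among 8 tested endothelial genes that respond to these signals 1 was higher, beside 4.95% of all tested genes. It was the nuclear receptor gene Nr4a1, an immediate early gene induced by VEGF in cultured endothelium. The other 7 did not pass. Of the 8 log2 fold changes 6 were positive and 2 negative, those of Dll4 (-0.19) and Rcan1 (-0.16). Which cells of the heart the Nr4a1 RNA came from was not tested. Nr4a1 was at 5.62, 6.55, 6.32, 8.05 and 8.77 FPKM in PAMH replicates 1 to 5, against 1.92 to 2.99 FPKM in control replicates 1 to 4 and 5.72 FPKM in control replicate 5. Only control replicate 5 reached the PAMH range (log2 fold change 1.05, SE 0.20, limma adjusted p = 0.0118). The Nr4a1 call was lost without PAMH replicates 4 and 5 (log2 fold change 0.90, limma adjusted p = 0.0568) and with no filter (limma adjusted p = 0.0585). Of the 3 tested genes of peptide processing, among them Pam, whose enzyme amidates adrenomedullin, none passed in limma, and 1 had an unadjusted p under 0.05. Of the 13 tested genes of transmission inside the endothelial cell, such as Nos3 for nitric oxide synthase and Akt1, none passed in limma, and 3 had an unadjusted p under 0.05, a share close to the 24.0% of all tested genes.

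Adm and Vegfa are textbook targets of the hypoxia-inducible factors (HIF), and 9 further genes of a chosen, incomplete list of such targets were tested. Whether other members, among them Apln and Flt1, respond to HIF was not examined. Of the 9 listed genes Egln3 and Bnip3 were higher, none was lower and 7 did not pass. The median log2 fold change of the 9 genes was 0.18, beside 4.95% called higher and a median of 0.07 over all tested genes. Egln3, a prolyl hydroxylase that marks HIF subunits for breakdown, was at 41.4, 51.4, 32.4, 49.3 and 40.3 FPKM in PAMH replicates 1 to 5, against 26.8, 32.3, 24.7, 24.8 and 30.4 FPKM in control replicates 1 to 5. All PAMH values lay above all control values, PAMH replicate 3 by a narrow margin over control replicate 2 (log2 fold change 0.60, SE 0.12, limma adjusted p = 0.0158). The Egln3 call was lost without PAMH replicates 4 and 5 (log2 fold change 0.55, limma adjusted p = 0.0578) and with no filter (limma adjusted p = 0.0618). Bnip3, a mitophagy receptor, averaged 90.1 ± 15.05 FPKM in PAMH and 60.6 ± 6.85 FPKM in control hearts, with overlap at PAMH replicate 4 (log2 fold change 0.55, limma adjusted p = 0.0214). The Bnip3 call was lost without PAMH replicate 1 or 5 and without control replicate 3 (adjusted p = 0.0595, 0.0552 and 0.0618 by limma). It was also lost under 2 of 4 other scalings, with quantile normalization (log2 fold change 0.42, limma adjusted p = 0.125) and rescaling outside the mitochondrial genes (0.44, limma adjusted p = 0.1178), and with no filter (limma adjusted p = 0.0789). In all, Bnip3 passed in 15 of 22 other settings and did not in 7. A pair of further genes is named after their values were seen. The glucose transporter gene Slc2a1 had groups that did not overlap, at 3.12 ± 0.396 FPKM in PAMH and 2.34 ± 0.202 FPKM in control hearts, and missed the threshold (limma adjusted p = 0.0504). In the other direction Higd1a, a mitochondrial protein gene induced by hypoxia, stood at 12.5 ± 1.48 FPKM in PAMH and 15.7 ± 1.61 FPKM in control hearts, with 4 PAMH samples below all controls, and also missed it (log2 fold change -0.30, limma adjusted p = 0.0694).

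**Figure D3:**
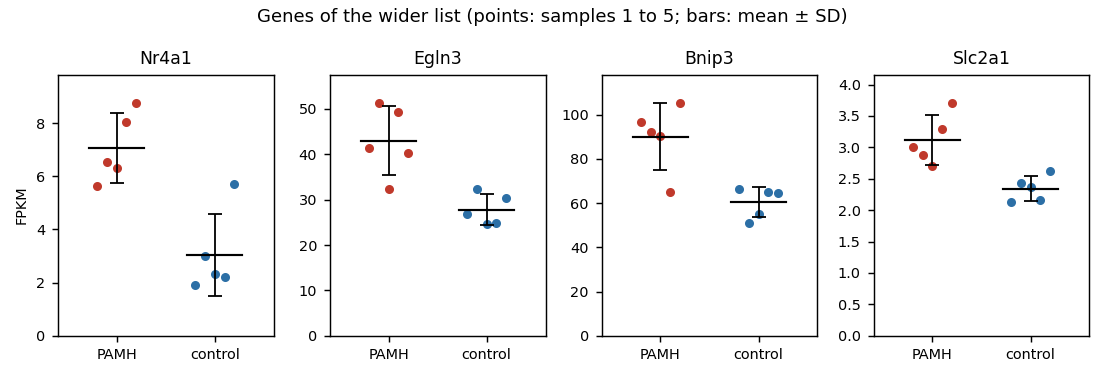
FPKM of Nr4a1, Egln3, Bnip3 and Slc2a1 in 5 PAMH (red, left) and 5 control (blue, right) samples, with the mean as a line and the SD as an error bar. The groups do not overlap for Egln3 and Slc2a1, and overlap at 1 control sample for Nr4a1 and at 1 PAMH sample for Bnip3.

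The 250 bases before the start of Apln, Adm, Egln3 and Bnip3 are shown because HIF binds the core ACGTG or GCGTG. These are the called members and the called genes of the HIF list. The sequences are from RefSeq, build GRCm38.p6, 5′ to 3′ on the strand of the gene, with each core on either strand in capitals (as CACGT or CACGC on the other strand).
Apln: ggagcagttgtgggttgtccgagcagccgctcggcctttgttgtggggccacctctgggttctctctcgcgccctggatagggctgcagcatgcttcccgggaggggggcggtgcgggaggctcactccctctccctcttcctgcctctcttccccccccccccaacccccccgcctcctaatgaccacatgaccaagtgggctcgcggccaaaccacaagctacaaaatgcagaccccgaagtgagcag
Adm: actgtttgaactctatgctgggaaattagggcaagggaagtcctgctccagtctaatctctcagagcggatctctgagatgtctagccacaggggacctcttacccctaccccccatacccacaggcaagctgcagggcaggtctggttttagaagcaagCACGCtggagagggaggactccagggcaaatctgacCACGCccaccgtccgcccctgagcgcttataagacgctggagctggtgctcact
Egln3: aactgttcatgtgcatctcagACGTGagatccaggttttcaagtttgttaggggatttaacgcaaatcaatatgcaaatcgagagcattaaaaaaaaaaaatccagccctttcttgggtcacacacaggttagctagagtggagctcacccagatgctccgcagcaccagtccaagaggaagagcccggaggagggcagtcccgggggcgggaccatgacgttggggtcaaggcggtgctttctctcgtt
Bnip3: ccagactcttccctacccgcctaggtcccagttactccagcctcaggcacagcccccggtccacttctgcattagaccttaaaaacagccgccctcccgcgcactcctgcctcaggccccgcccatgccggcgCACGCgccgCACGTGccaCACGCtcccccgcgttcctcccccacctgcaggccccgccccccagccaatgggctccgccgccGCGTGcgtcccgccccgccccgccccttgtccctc
They lie at chrX:48034854-48035103 (minus strand), chr7:110627407-110627656 (plus), chr12:54203875-54204124 (minus) and chr7:138909507-138909756 (minus). Adm held 2 cores, both GCGTG on the other strand, beginning 90 and 54 bases before the start. Egln3 held 1, at 229 bases, and Bnip3 held 5, of which a pair of ACGTG on the 2 strands overlap as CACGTG. The Apln window held none. Of 32851 RefSeq windows of this length, 38.6% held either core, 16.6% ACGTG and 28.2% GCGTG. Among the other members with an entry Kdr held 2 and Flt1 held 1, and the windows of Calcrl, Vegfa and Tek held none. The window of Nr4a1, which is not on the HIF list and is not shown, held 2. Windows of the HIF-list genes that did not pass were not read one by one, so called and uncalled genes of that list cannot be compared. The windows shown were chosen by the calls of their genes, and cores outside the 250 bases were not sought. A part of HIF in the changes of Apln and Adm was not tested.

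Aplnr, Calcrl, Ramp2, Kdr, Flt1 and Tek are expressed mainly by endothelial cells, so the endothelial content of each sample was read from 14 markers. In bulk tissue fewer cells of a type cannot be told apart from less RNA per cell. Their summed level was 169 to 184 FPKM in PAMH and 183 to 231 FPKM in control hearts, which just overlap, and none was at 0. Of these markers 1 was lower (Cldn5, a tight junction gene), beside 1.24% of all tested genes, none was higher and 13 did not pass. Of their log2 fold changes 9 of 14 were negative, beside 3087 of 9439 over all tested genes. An unadjusted p under 0.05 was found by limma in 6 of 14, beside 24.0% of all tested genes. These were Pecam1, Esam, Ptprm, Cldn5 and Fabp4 with negative changes and Emcn with a positive one. Summed pericyte markers overlapped, at 78.0 to 111 FPKM in PAMH and 90.6 to 118 FPKM in control hearts. Sums of smooth muscle markers (63.1 to 109 FPKM in PAMH and 32.4 to 55.8 FPKM in control hearts, mostly Acta2) and of mesothelial markers (2.19 to 5.67 and 0.404 to 1.04 FPKM) did not overlap. Of the smooth muscle markers only Acta2 was called, at 82.5 ± 20.7 FPKM in PAMH and 32.1 ± 5.95 FPKM in control hearts. Myh11 averaged 1.89 FPKM in PAMH and 1.69 FPKM in control hearts, and Tagln 6.83 and 6.97 FPKM. Cnn1, below the filter, averaged 0.278 and 0.379 FPKM, and the groups overlapped for all of Myh11, Tagln and Cnn1. Of the mesothelial markers only Upk3b reached the filter, and it was higher (2.04 ± 0.787 FPKM in PAMH and 0.293 ± 0.139 FPKM in control hearts, limma adjusted p = 0.0019). Msln, Wt1 and Krt19 were below the filter. The groups overlapped for Wt1, with 3 PAMH samples above and 2 below all controls, and did not for Msln and Krt19. Summed macrophage markers were 53.0 to 65.1 FPKM in PAMH and 45.4 to 53.4 FPKM in control hearts, with overlap. Of the 4 tested 1 was higher, beside 4.95% of all tested genes (Cd68, 5.05 ± 0.803 FPKM in PAMH and 3.38 ± 0.355 FPKM in control hearts, limma adjusted p = 0.0187). The other tested macrophage markers did not pass: C1qa had a positive log2 fold change (0.21, limma adjusted p = 0.142). Csf1r and Adgre1 had negative ones (-0.04 and -0.06, limma adjusted p = 0.848 and 0.738). The part of these cell types in the changes of Apln and Adm was not tested.

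Set against the endothelial markers of the same sample, Adm stood at 1.68 ± 0.319 FPKM per 100 FPKM of markers in PAMH and 0.952 ± 0.243 in control hearts (SD, n = 5 each). Apln stood at 1.90 ± 0.331 in PAMH and 2.40 ± 0.396 in control hearts, and the groups overlapped on this scale. Flt1 and Tek did not overlap, at 3.68 ± 0.285 and 4.28 ± 0.391 in PAMH against 3.09 ± 0.124 and 3.44 ± 0.167 in control hearts. Of the markers Fabp4 had the largest fall in mean FPKM, to 34.3 ± 4.76 FPKM in PAMH from 47.2 ± 9.42 FPKM in control hearts (limma adjusted p = 0.0700). Fabp4 and Ly6c1, the most abundant of the markers, were then left out of the sum, a choice made after seeing the data. The sum of the other 12 was 104 to 127 FPKM in PAMH and 114 to 129 FPKM in control hearts. On this scale both Flt1 and Tek overlapped again, at 5.84 ± 0.730 and 6.78 ± 0.692 in PAMH against 5.17 ± 0.435 and 5.75 ± 0.513 in control hearts. Kdr hardly differed on either scale, with log2 differences of -0.00 and -0.08.

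**Figure D4:**
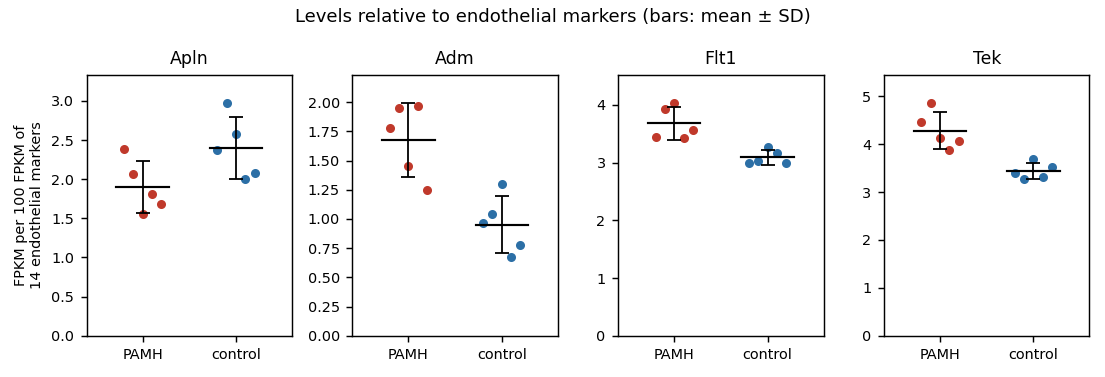
FPKM of Apln, Adm, Flt1 and Tek per 100 FPKM of 14 summed endothelial markers in 5 PAMH (red, left) and 5 control (blue, right) samples, with the mean as a line and the SD as an error bar. The groups do not overlap for Flt1 and Tek, and do for Apln and Adm.

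Among the genes whose pattern over the 10 samples was most like that of Apln, by the root mean square difference of standardised log2(FPKM + 1), were Ptprm (0.238) and Foxo1 (0.309), where the median gene was at 1.4998. Ptprm is a receptor-type phosphatase of endothelium and Foxo1 a forkhead transcription factor. For Adm they were Ncs1 (0.218), a neuronal calcium sensor, Ier5 (0.354), an immediate early gene, and Mrpl15 (0.384), a mitochondrial ribosomal protein, with the median gene at 1.24. Likeness to a gene that was called fixes the direction of these genes, so no test of their group difference is given.

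The calls of Apln and Adm were followed through 21 other settings in which both genes were tested. Apln passed in 14 and did not in 7, with adjusted p from 0.00725 to 0.0804. Adm passed in 9 and did not in 12, with adjusted p from 0.0253 to 0.1295. Neither log2 fold change turned in sign.

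**Figure D5:**
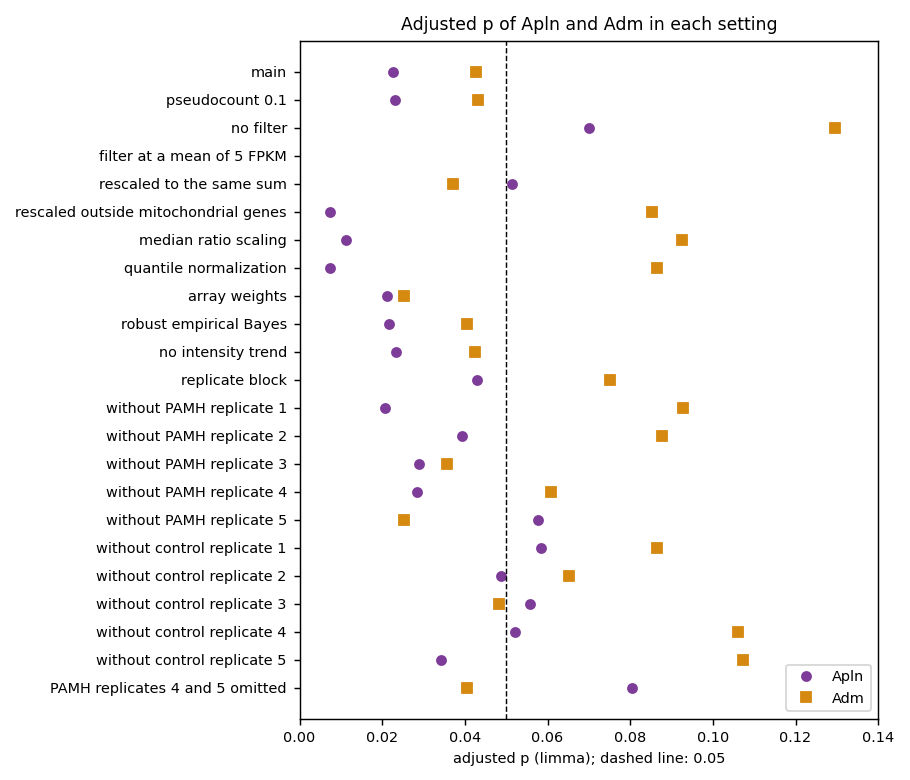
Adjusted p (limma) of Apln (circles) and Adm (squares) in the setting reported and in each other setting, with a dashed line at 0.05. Apln lies left of the line in 14 and Adm in 9 of 21 other settings; with the filter at a mean of 5 FPKM neither was tested.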

How the data were processed

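RNA-seq of heart was compared between 5 PAMH and 5 control samples, grouped by their titles; table columns were matched to samples by the descriptions. The authors deposited FPKM per Ensembl gene. Per the submitters' processing notes, the tools were HISAT2 2.2.1, DESeq2 1.18.1, HTSeq 0.13.5, Trimmomatic 0.38, R 3.4.1 and FastQC 0.11.9, on build mm10; no source used here gives which of them made the FPKM, the strand setting or the annotation. Of 55335 identifiers 55154 were found in GENCODE vM21 (GRCm38), including all 10 members.

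Genes averaging 1 FPKM or more over all samples were tested on log2(FPKM + 1) with limma 3.58.1 in R 4.3.3 (intensity trend, 2-sided, Benjamini-Hochberg adjustment over 9439 genes). Fold changes on this scale understate those of low genes. SE are those of limma.

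Steps were sought in FPKM times kilobases of genes with 1 transcript over 500 bases. Between 23.3% and 32.6% of values up to 10 steps lay within 0.03 of a whole step, where 6% would by chance, so depth is approximate and whole reads were not recovered. More than 6 decimals were given for 97.3% of genes with several transcripts and 0.612% of genes with 1, and how their values were built is not given.

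Members and lists were chosen with earlier results of these data known. Named were all members, genes of the wider list that passed, fixed ligand and receptor relatives, and the 3 genes most alike each called member, of which 1 is not reported here. Same-numbered samples showed little tendency to deviate together (correlations from -0.195 to 0.16), and the numbers were not used to pair them. So few pairs cannot exclude a shared litter or batch. Plots were made in Python (matplotlib 3.10.9).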

Additional observations from a re-analysis of the deposited data

Results flagged for a closer look

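A sample far from the others of its group was sought in 104 groups of values (a gene, ratio, marker sum or depth measure in 1 group of 5 samples), and 7 were found, where chance flags about 1 in 20. PAMH replicate 4 accounted for 3 of them. Its Calcrl was 1.65 FPKM, with the other PAMH samples at 2.998 FPKM or more, and its Calcrl per 100 FPKM of endothelial markers was 0.898. Its summed erythroid markers reached 863 FPKM, where the lowest PAMH sample had 97.3 FPKM. Control replicate 4 had the highest control Flt1, at 7.32 FPKM, and control replicate 2 the highest control Flt4, at 1.93 FPKM. The Nr4a1 level of control replicate 5, 5.72 FPKM, was the only control value within the PAMH range. Control replicate 2 had summed cardiomyocyte markers of 10801 FPKM.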

How the results depend on the processing

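With no filter Apln and Adm had log2 fold changes of -0.43 and 0.44 (adjusted p = 0.0699 and 0.1295) and limma called 264 of all genes, 0 members and 0 genes of the wider list, while 2 members and 12 listed genes had an unadjusted p under 0.05. The filter at 5 FPKM tested 5 members and called 0, of which 0 had an unadjusted p under 0.05. Rescaling to the same sum called 1 member, Adm (0.48, limma adjusted p = 0.0371), while Apln was not called at -0.39 (adjusted p = 0.0515) and Ramp2 was at 0.0066. Rescaling outside the mitochondrial genes, median ratio scaling and quantile normalization each called 1 member, Apln. It was at -0.52, -0.50 and -0.51 (adjusted p = 0.00734, 0.0111 and 0.00725 by limma). Adm was not called, at 0.36, 0.38 and 0.39. Flt1 was at -0.0547, -0.028 and -0.056, Vegfb at -0.0848, -0.0539 and -0.10 and Ackr3 at -0.0604, -0.031 and -0.0784, and quantile normalization put Tek at -0.0023. Array weights called 1214 genes, 10 of the wider list, and put Ramp2 at 0.0258. With the replicate number as a block 239 genes, 1 member (Apln) and 3 listed genes were called, and Adm was at 0.44 (adjusted p = 0.0751). The reported fit did not pair samples by number, and 2 of 5 pairs correlated best with their own number. Without PAMH replicates 4 and 5 there were 357 calls, 1 member (Adm) and 3 listed genes, with Apln at -0.38 (adjusted p = 0.0804), Ramp2 at 0.0548, Vegfb at -0.0336 and Ramp3 at 0.0148. Same-sum rescaling also put Ramp1 and Ramp3 at 0.0178 and 0.0184. Leaving out each sample gave 274 to 1126 calls, 0 to 2 members (0 without control replicate 1 or 4, where 2 and 3 had an unadjusted p under 0.05), 3 to 8 listed genes, and log2 fold changes of -0.49 to -0.38 for Apln, 0.38 to 0.53 for Adm, -0.11 to 0.0016 for Ramp2, -0.0793 to 0.10 for Vegfb, -0.13 to 0.0152 for Vegfc, -0.11 to 0.0506 for Ramp1, -0.0831 to 0.0311 for Ramp3 and -0.0255 to 0.11 for Ackr3. The pseudocount, robust empirical Bayes and the absence of a trend changed no call of a member. The cause was not tested where a call changed. The fewer steps behind a value, the larger its counting error.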

Other observations

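Vegfc and its receptor Flt4 act on lymphatic vessels, so the lymphatic markers were read from the same fit. None of 4 tested markers passed in limma, and 3 had an unadjusted p under 0.05, beside 24.0% of all tested genes. The summed lymphatic markers overlapped, at 26.7 to 35.1 FPKM in PAMH and 25.6 to 32.1 FPKM in control hearts. Prox1, a transcription factor of lymphatic endothelium that cardiomyocytes also express, stood at 4.23 ± 0.682 FPKM in PAMH and 3.18 ± 0.193 FPKM in control hearts (SD, n = 5 each), with no overlap of the groups (limma adjusted p = 0.0552). Lyve1, a hyaluronan receptor shared by lymphatic endothelium and resident macrophages, stood at 10.98 ± 1.47 FPKM in PAMH and 9.05 ± 0.614 FPKM in control hearts, with overlap (limma adjusted p = 0.119). Pdpn, the podoplanin gene, stood at 1.77 ± 0.184 FPKM in PAMH and 1.32 ± 0.359 FPKM in control hearts, also with overlap (limma adjusted p = 0.1299). Ccl21a, a chemokine gene of lymphatic endothelium, had 13.4 ± 3.80 FPKM in PAMH and 13.2 ± 2.63 FPKM in control hearts.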
